A study of Mus musculus with 6 samples.

Results

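The genes described here are the output factors of the circadian clock that belong to the bZIP and bHLH families, together with the nuclear receptor gene *Rora*: *Dbp*, *Tef*, *Hlf*, *Nfil3*, *Bhlhe40*, *Bhlhe41* and *Rora*. They were chosen by name, as every non-control probe on the array annotated to 1 of these 7 symbols, with earlier results of these data known. This gave 15 of 56605 probes and 7 of 27307 named genes. RNA came from the myocardium of male C57BL/6J mice with a cardiomyocyte deletion of *Clk4* (*Clk4*-cKO), a gene encoding a dual-specificity protein kinase, and was hybridised to 1 Agilent 1-colour array per sample. 3 samples carried AAV NEXN-WT, which delivers the wild-type form of nexilin, a Z-disc protein of cardiac muscle, and 3 carried AAV NEXN-S437E, in which glutamate replaces a serine to imitate its phosphorylated form. The comparison asks which transcripts differ between *Clk4*-cKO hearts given the phosphomimetic protein and those given the wild-type protein.

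Both groups therefore share the deletion, which the study's methods place under an α-MHC promoter with a tamoxifen-inducible Cre, and both received an AAV9 vector whose CMV promoter is not restricted to cardiomyocytes. *Clk4*-intact mice and *Clk4*-cKO mice without nexilin delivery are not among the 6 samples. The age of the mice is not in the labels, and the time of day at which hearts were collected is not given in the sources used here. The 7 genes are circadian, and the part of collection time in any difference between the groups was not tested. Since both groups carry the same deletion and a nexilin vector, neither *Clk4* nor *Nexn* probes can check the labels.

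In the circadian clock, CLOCK and BMAL1 bind E-boxes and drive their own repressors, the PER and CRY proteins, as well as a layer of output factors. DBP, TEF and HLF are PAR bZIP activators that bind D-boxes, and NFIL3 is a bZIP repressor of the same sites. BHLHE40 and BHLHE41 (DEC1 and DEC2) are bHLH repressors that act at E-boxes, and RORα activates *Arntl*, the gene for BMAL1, through its own response elements. In the heart the clock and its PAR bZIP outputs are known for timing metabolic and electrical genes over the day.

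The promoters of the genes are shown first because E-boxes and D-boxes are the sites through which these factors and their regulators act. RefSeq (GRCm38.p6) gave 7 promoter entries for 6 of the 7 genes, each running from 250 bases before to 50 bases after a transcript start, and *Bhlhe40* had no entry. The E-box CACGTG, which reads the same on both strands, was present in 3 of the 7 entries, both of *Tef* and that of *Bhlhe41*, and in 7.15% of all 32851 promoters of the same length. The D-box TTATGTAA, sought on both strands, was in 0 of the 7 and in 0.938% of all promoters. The hexamer AGGTCA to which ROR and REV-ERB receptors bind, sought on both strands, was in 1 of the 7, that of *Nfil3*, and in 16.3% of all promoters. None of the 3 motifs contains another. A match is a description of these letters and not evidence of binding.
*Tef*, first start, chr15:81802506-81802591, plus strand, with the E-box in capitals beginning 127 bases before the start: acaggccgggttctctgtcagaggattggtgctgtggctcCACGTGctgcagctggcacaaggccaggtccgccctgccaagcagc
*Tef*, second start, chr15:81811236-81811321, plus strand, with the E-box in capitals beginning 138 bases before the start: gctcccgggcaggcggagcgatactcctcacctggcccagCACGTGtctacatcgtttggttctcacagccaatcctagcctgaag
*Bhlhe41*, chr6:145865528-145865613, minus strand, with the E-box in capitals beginning 153 bases before the start: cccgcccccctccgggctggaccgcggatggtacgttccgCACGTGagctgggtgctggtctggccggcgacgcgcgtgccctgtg
*Nfil3*, chr13:52981040-52981091, minus strand, with the hexamer on the opposite strand in capitals beginning 12 bases before the start: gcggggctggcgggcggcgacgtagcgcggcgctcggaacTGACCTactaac

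The arrays were alike in quality but not in brightness. Between 41.9% and 47.8% of non-control spots were well above background and 0 spots were saturated, while the 75th percentile of the intensities of detected probes ranged from 692.7 (NEXN-S437E replicate 1) to 1520 (NEXN-WT replicate 1). Levels below are therefore log2 of the processed signal minus this percentile of the same array, so that 0 is the 75th percentile and a difference of 1 is a doubling. NEXN-WT replicate 1 stood apart: its mean absolute log2 difference over all tested probes was 0.37 and 0.43 from the other 2 NEXN-WT arrays and 0.48 to 0.55 from the NEXN-S437E arrays, whereas the remaining between-group distances were 0.30 to 0.32. All arrays lay on 1 slide, in 1 scan. NEXN-WT replicates 1 to 3 and NEXN-S437E replicate 1 were in 1 slide row and the other two NEXN-S437E arrays in another. The study's legend for these arrays counts each group's samples as separate animals.

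Testing required a probe to exceed background clearly (the scanner software's own call) on each of the 3 arrays in 1 group or the other. That left 22998 probes of 13747 genes, of which 12 belonged to the 7 clock output factors. Every gene kept at least 1 tested probe. The other 3 member probes, *Tef* A_52_P173309, *Tef* A_55_P2912692 and *Rora* A_55_P2068006, failed that call on all 6 arrays.

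None of the 12 member probes passed an adjusted p of 0.05 in limma. The smallest adjusted p was 0.207 for *Hlf*, and over all tested probes 34 of 22998 passed, or 0.148%. None reached the 2-fold change with an unadjusted p under 0.05 that the study's results name, against 2.57% of all tested probes. At an unadjusted p under 0.05, 1 of 12 was higher with NEXN-S437E (*Hlf*; 7.84% of all tested probes) and 0 of 12 lower (8.57% of all). These counts moved with the setting, as did the background. Without NEXN-WT replicate 3 they were 1 and 3 (A_55_P2035320 of *Nfil3* and both *Rora* probes), against 9.08% and 11.3% of all tested probes. With the methods' t-test they were 3 and 1, against 7.06% and 6.50%. With the slide row as a block they were 0 and 1, against 3.50% and 6.58%. Without NEXN-S437E replicate 1 they were 3 and 0, against 6.98% and 7.79%. The 3 NEXN-S437E arrays lay above all 3 NEXN-WT arrays for 3 of 12 probes, 2 of *Tef* and 1 of *Hlf*, against 14.4% of all tested probes. They lay below for 1 of 12, *Bhlhe40*, against 12.4%. Without NEXN-WT replicate 1 these counts were 3 and 1, against 17.4% and 15.4% of all tested probes. Counts this small are a description beside the background, not a result about the 12 probes. The median log2 fold change was −0.06 for the 12 probes and 0.01 for all tested probes, with 6 member probes above 0 and 6 below.

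**Figure D1:**
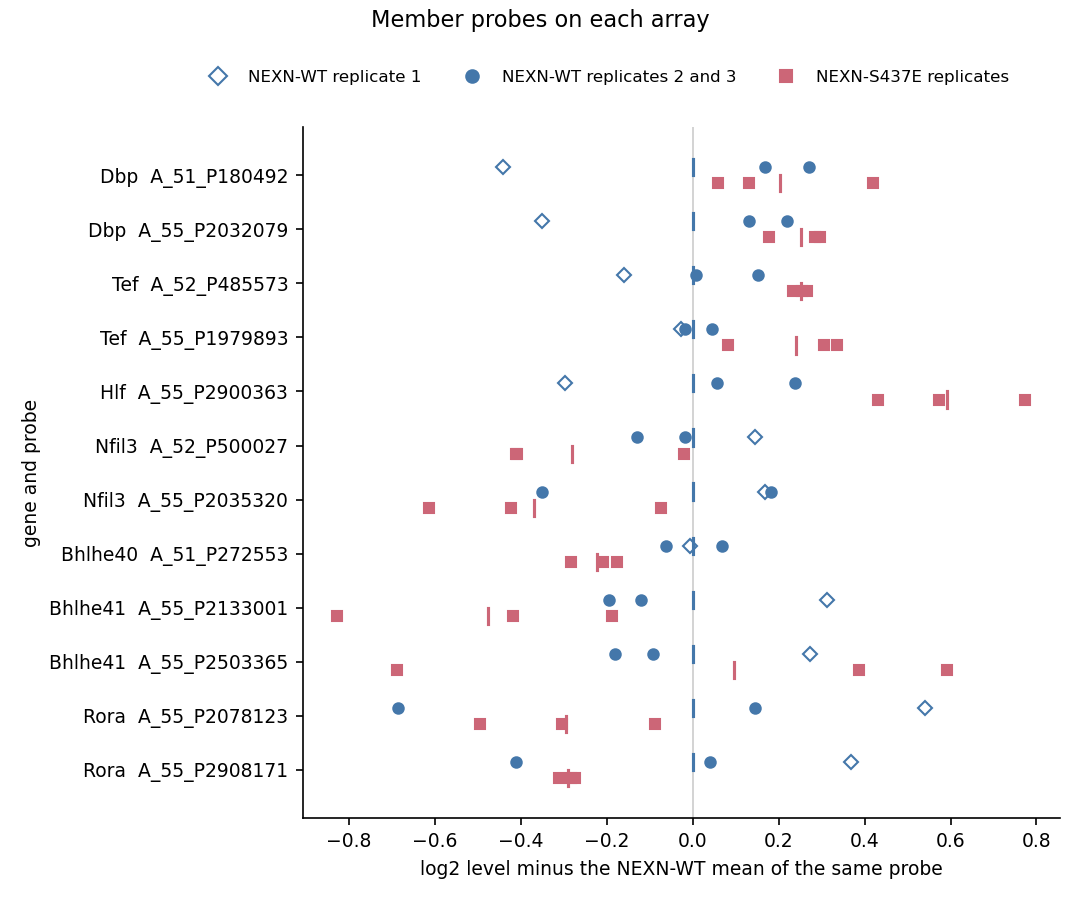
Level of each of the 12 tested probes on each array, as the log2 level minus the NEXN-WT mean of the same probe (x axis), with open diamonds for NEXN-WT replicate 1, filled circles for NEXN-WT replicates 2 and 3, squares for NEXN-S437E and short bars for group means. The squares lie apart from the NEXN-WT points for *Hlf*, both *Tef* probes and *Bhlhe40*, and NEXN-WT replicate 1 is the lowest NEXN-WT array on all 5 probes of *Dbp*, *Tef* and *Hlf*.

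Among the PAR bZIP activators, *Hlf* had the largest fold change of the 12 probes. Its single probe, A_55_P2900363, read −3.57, −3.03 and −3.21 on the NEXN-WT arrays. On the NEXN-S437E arrays it read −2.84, −2.50 and −2.70. All 3 NEXN-S437E values were above the highest NEXN-WT value, and NEXN-WT replicate 1 was the lowest of the 6. The log2 fold change was 0.59 ± 0.18 (SE, n = 3 per group), or 1.51-fold with a 95% interval of 1.13 to 2.02. In limma its p was 0.012 before and 0.207 after Benjamini-Hochberg adjustment. It ranked 1362 among the 22998 tested probes by p. An exact permutation test of the same values gave a two-sided p of 0.1, the smallest that 3 against 3 samples allow.

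The difference in *Hlf* was seen on a probe of modest signal, and the scaling entered into it. The processed intensities before scaling were 128, 128 and 102 with NEXN-WT and 96.9, 176 and 135 with NEXN-S437E, so that the groups overlapped until each array was set to its own percentile. In the quantile-like values that the authors deposited, the difference was 0.68 and the groups did not overlap. Without NEXN-WT replicate 1 the log2 fold change was 0.44 ± 0.15 (SE), with an adjusted p of 0.304 in limma. With the slide row as a block it was 0.43 ± 0.25 (SE), with an unadjusted limma p of 0.139 and an adjusted p of 0.562. Since the other row holds NEXN-S437E arrays only, this value is by construction the difference within the first row and rests on 1 NEXN-S437E array.

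*Tef* was measured by 2 detected probes that lay close together (mm9 chr15:81656928-81656987 and chr15:81657221-81657280), so they are not independent readings of the gene. Probe A_52_P485573 read 0.27, 0.44 and 0.58 with NEXN-WT and 0.69, 0.68 and 0.66 with NEXN-S437E. Probe A_55_P1979893 read 2.49, 2.57 and 2.50 with NEXN-WT and 2.60, 2.86 and 2.83 with NEXN-S437E. On both probes every NEXN-S437E array was above every NEXN-WT array, the gap being narrow on the second, and NEXN-WT replicate 1 was the lowest. The log2 fold changes were 0.25 ± 0.13 (SE; 95% interval −0.06 to 0.57) and 0.24 ± 0.13 (−0.07 to 0.55), with limma adjusted p of 0.382 and 0.391. The intervals allow anything from a slight decrease to a rise of about 1.48-fold.

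In the deposited log2 values the groups still did not overlap for A_52_P485573, with a difference of 0.23, but they overlapped for A_55_P1979893, with a difference of 0.14. Within the slide row that holds both groups the differences were 0.27 and 0.08. Without NEXN-WT replicate 1 they were 0.17 and 0.23 (limma adjusted p 0.573 and 0.524).

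The 2 *Tef* probes below background are of another kind. A_52_P173309 spans 2106 bases of mm9 (chr15:81651816-81653921) for a probe of 60 bases and therefore crosses at least 1 exon junction, and A_55_P2912692 lies upstream of it (chr15:81647233-81647292). The first is printed because it is the probe whose target is divided in the genome.
*Tef* A_52_P173309, all 60 bases: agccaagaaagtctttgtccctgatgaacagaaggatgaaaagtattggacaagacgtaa
Neither was well above background, so the values given for *Tef* come from the other pair.

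*Dbp*, the best-known of the PAR bZIP outputs, was read by 2 probes 136 bases apart (mm9 chr7:52965265-52965324 and chr7:52965461-52965520). The second contains AATAAA, the hexamer that directs polyadenylation, which 3 of the 12 tested member probes and 9.77% of all 56605 probes contain. Bases 31 to 60 of both probes are shown because the hexamer is a feature that sets them apart.
*Dbp* A_55_P2032079, AATAAA in capitals: caacacaatcctgAATAAAtcttgagaacc
*Dbp* A_51_P180492: acttacacctgacttcctccttgtcccatg

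Probe A_51_P180492 read 3.59, 4.20 and 4.30 with NEXN-WT and 4.45, 4.16 and 4.09 with NEXN-S437E. Probe A_55_P2032079 read 2.92, 3.40 and 3.49 with NEXN-WT and 3.55, 3.56 and 3.44 with NEXN-S437E. On both, NEXN-WT replicate 1 was well below all other arrays, and the remaining 5 arrays overlapped. The log2 fold changes were 0.20 ± 0.22 (SE; 95% interval −0.30 to 0.71) and 0.25 ± 0.18 (−0.16 to 0.67), with limma adjusted p of 0.646 and 0.488. Without NEXN-WT replicate 1 they were −0.02 ± 0.15 and 0.08 ± 0.12, and without NEXN-WT replicate 3 they were 0.34 ± 0.23 and 0.36 ± 0.19. In the deposited log2 values the differences were 0.038 and 0.095, and with the slide row as a block they were 0.42 and 0.28. The direction of *Dbp* thus changed sign on 1 probe when that single array was left out, and the interval on all 6 arrays allows fold changes from 0.81 to 1.64.

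The bZIP repressor *Nfil3* was measured by 2 probes that share 53 of their 60 bases (mm9 chr13:53062585-53062644 and chr13:53062578-53062637, minus strand), and both contain AATAAA. The shown stretches, bases 31 to 60 of the first and 25 to 54 of the second, let this overlap be seen.
*Nfil3* A_52_P500027: tgttgccagtttcAATAAAggattggtggc
*Nfil3* A_55_P2035320: gttgccagtttcAATAAAggattggtggca
They count as 1 reading of the gene.

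A_52_P500027 read −1.28, −1.44 and −1.55 with NEXN-WT and −1.84, −1.83 and −1.45 with NEXN-S437E. A_55_P2035320 read −1.49, −1.48 and −2.01 with NEXN-WT and −2.27, −2.08 and −1.73 with NEXN-S437E. On both probes the groups overlapped, because NEXN-S437E replicate 3 was among the NEXN-WT values and, on the second, NEXN-WT replicate 3 was low. The log2 fold changes were −0.28 ± 0.16 (SE; 95% interval −0.66 to 0.10) and −0.37 ± 0.21 (−0.86 to 0.12), with limma adjusted p of 0.410 and 0.402. Within the slide row that holds both groups they were −0.41 and −0.61. They were −0.17 and −0.25 with array weights, and −0.21 and −0.29 without NEXN-WT replicate 1.

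**Figure D2:**
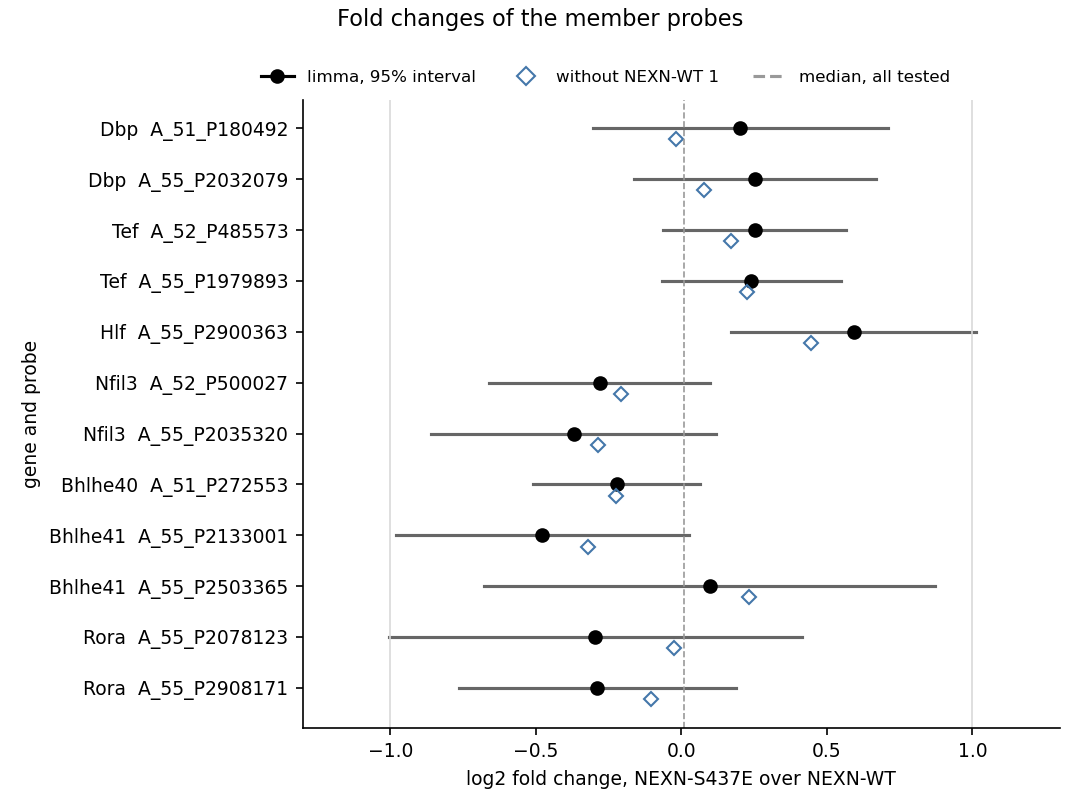
Log2 fold change of NEXN-S437E over NEXN-WT for each of the 12 tested probes (x axis), as filled circles with limma 95% intervals. Open diamonds give the fold change without NEXN-WT replicate 1, the dashed line the median of all tested probes (0.01), and the pale lines a 2-fold change. The interval of *Hlf* alone lies clear of 0 in this fit, though with the slide row as a block its p was 0.139 in limma. The open diamonds lie closer to 0 than the circles for all probes but *Bhlhe40* A_51_P272553 and *Bhlhe41* A_55_P2503365.

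Of the bHLH repressors, *Bhlhe40* was read by 1 probe, A_51_P272553 (mm9 chr6:108616309-108616368). It read −0.57, −0.63 and −0.50 with NEXN-WT and −0.77, −0.85 and −0.74 with NEXN-S437E. All 3 NEXN-S437E values were below the lowest NEXN-WT value, and the spread within a group was small (SD 0.065 and 0.055). The log2 fold change was −0.22 ± 0.12 (SE; 95% interval −0.51 to 0.06), with a limma adjusted p of 0.392. It was −0.23 without NEXN-WT replicate 1 and −0.21 within the slide row that holds both groups.

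*Bhlhe41* was near the limit of detection, and both of its probes entered the test through NEXN-WT alone. A_55_P2133001 was well above background on 3 of 3 NEXN-WT arrays but on 1 of 3 NEXN-S437E arrays, and it read −5.13, −5.56 and −5.63 against −5.86, −5.63 and −6.27. A_55_P2503365, annotated to another transcript, was well above background on 3 of 3 and 2 of 3 arrays, and it read −5.33, −5.70 and −5.79 against −6.29, −5.01 and −5.22. The fitted log2 fold change was −0.48 ± 0.22 (SE; limma adjusted p 0.324) on the first and 0.10 ± 0.33 (adjusted p 0.896) on the second. Both are only descriptions, since entry through 1 group favours a probe that is high in it. The sign of the first turned to 0.14 with normexp background correction in place of the scanner's own, and the sign of the second turned when single NEXN-S437E arrays or slide rows were taken into account. No direction was established for *Bhlhe41*.

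*Rora*, the nuclear receptor of the set, was measured by 2 detected probes within a kilobase of each other (mm9 chr9:69226774-69226833 and chr9:69227536-69227595). A_55_P2078123 read −3.06, −3.45 and −4.29 with NEXN-WT and −4.09, −3.69 and −3.90 with NEXN-S437E. A_55_P2908171 read 1.16, 0.83 and 0.38 with NEXN-WT and 0.51, 0.48 and 0.50 with NEXN-S437E. The NEXN-WT arrays spread widely on both (SD 0.63 and 0.39) and enclosed the tight NEXN-S437E values (SD 0.20 and 0.02). The log2 fold changes were −0.30 ± 0.30 (SE; 0.815-fold, 95% interval 0.498 to 1.33) and −0.29 ± 0.20 (0.818-fold, 0.588 to 1.14), with limma adjusted p of 0.631 and 0.488. Without NEXN-WT replicate 1, the highest array on both probes, they were −0.03 and −0.10. Without NEXN-WT replicate 3, the lowest NEXN-WT array on both, they were −0.64 ± 0.20 and −0.49 ± 0.16 (SE), with unadjusted limma p of 0.017 and 0.020 and adjusted p of 0.174 and 0.185. The third probe, A_55_P2068006 (mm9 chr9:68511835-68511894), is annotated to another *Rora* transcript and was below that call on every array, so no fold is given for it.

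**Figure D3:**
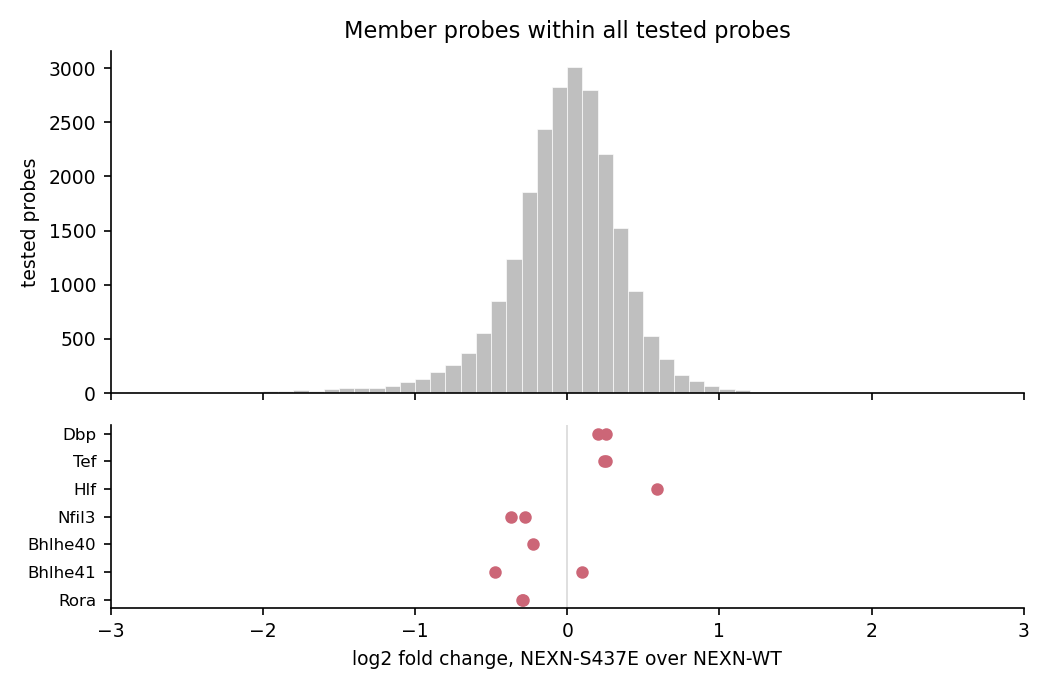
Histogram of the log2 fold change of NEXN-S437E over NEXN-WT for all 22998 tested probes in bins of 0.1 (top, y axis number of probes; the few probes beyond 3 in either direction are not drawn), with the 12 member probes as points by gene on the same x axis (bottom). The member probes lie between percentiles 9.47 (*Bhlhe41* A_55_P2133001) and 96.4 (*Hlf*) of the distribution, and *Hlf*, at 0.59, is the farthest from 0.

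The rest of the clock was read from 2 lists of genes named for their roles. Of 19 core clock genes on the array 16 were tested, by 30 probes, and *Npas2*, *Rorb* and *Fbxl21* were not. None of the 30 passed the adjusted p and 1 passed the 2-fold and unadjusted thresholds, against 0.148% and 2.57% of all tested probes. Of the 30, 17 lay above 0 and 13 below, and the median log2 fold change was 0.02 (0.12 without NEXN-WT replicate 1). At an unadjusted p under 0.05, 3 were higher and 2 lower, against 7.84% and 8.57% of all tested probes. The probe past the thresholds was *Arntl* A_52_P267651, for BMAL1, the activator that *Rora* is known to drive. It read −3.91, −4.19 and −3.79 with NEXN-WT and −5.00, −4.86 and −5.23 with NEXN-S437E, so that the groups did not overlap. The log2 fold change was −1.07 ± 0.17 (SE), with a limma adjusted p of 0.089, and it was the lowest on the list. Across all the fits its fold change ran from −1.18 to −0.21 and its adjusted p from 0.035 to 0.420. The call was lost with the percentile taken over all probes, with normexp, without NEXN-WT replicate 3 and without NEXN-S437E replicate 3. The other *Arntl* probes, A_66_P127371 (well above background on 2 arrays) and A_55_P2735445 (on 0), failed the detection filter, so the value rests on A_52_P267651 alone. The highest on the list was *Ciart*, a repressor of CLOCK and BMAL1, at 0.72 ± 0.28 (SE; limma adjusted p 0.271).

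Clock output genes other than the 7 were 15 genes with 23 tested probes. None passed the adjusted p, and 1 passed the 2-fold and unadjusted thresholds (2.57% of all tested probes), *Dgat2*, which makes triacylglycerol. It read 3.13, 3.80 and 4.43 with NEXN-WT and 4.98, 4.69 and 4.87 with NEXN-S437E. This came to a log2 fold change of 1.06 ± 0.30 (SE; limma adjusted p 0.193), and the groups did not overlap. Across all the fits it ran from 0.73 to 1.38, and the call was lost with quantile normalization, normexp, the deposited values, the methods' t-test, array weights and without NEXN-S437E replicate 1. At an unadjusted p under 0.05, 5 of 23 were higher and 0 lower, against 7.84% and 8.57% of all tested probes. Apart from *Dgat2* these were single probes of *Usp2*, *Nampt*, *Noct* and *Klf15*, named here after their values were seen. The median log2 fold change of the list was 0.29 against 0.01 for all tested probes, but it was 0.04 without NEXN-WT replicate 1. In that fit 16 of 23 probes lay above 0. There 4 were higher and 0 lower at an unadjusted limma p under 0.05, against 6.16% and 7.07% of all tested probes.

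**Figure D4:**
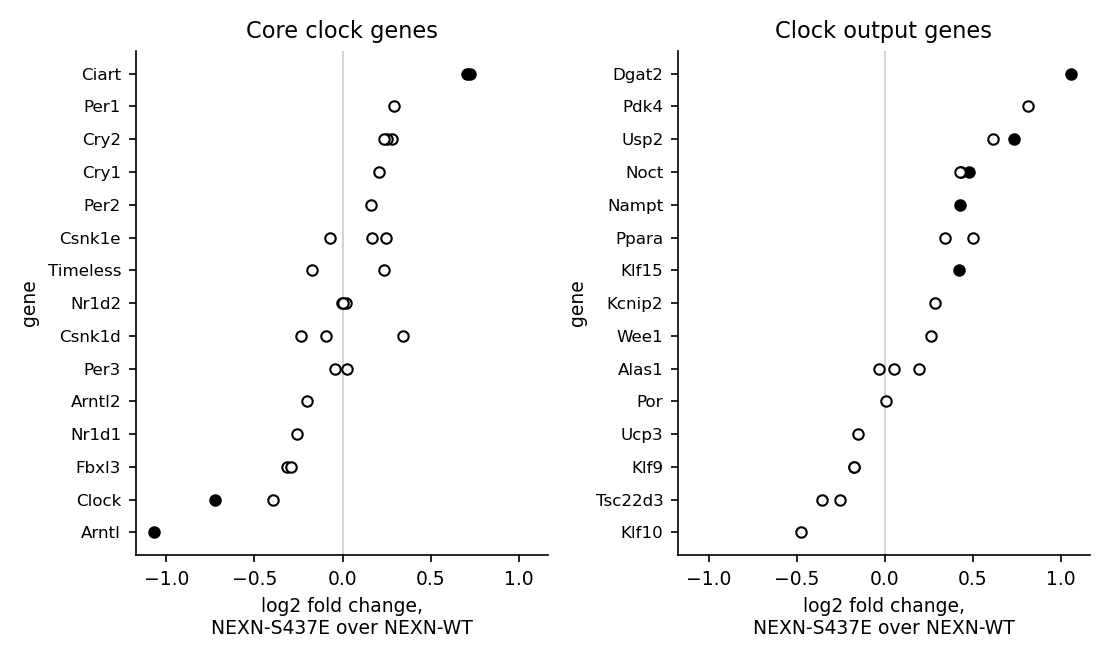
Log2 fold change of NEXN-S437E over NEXN-WT (x axis) for tested probes of the core clock genes (left, 28 of the 30 probes) and of the other clock output genes (right, 23 probes), by gene, ordered by the gene's mean. Filled points have an unadjusted limma p under 0.05. *Arntl* is the lowest core clock gene at −1.07 and *Dgat2* the highest output gene at 1.06.

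For each factor, the genes whose values followed it most closely over the 6 arrays were sought among 18906 probes of 12937 genes, as the smallest root mean square difference of centred log2 values. The 3 nearest to *Hlf* were *Etfa* (0.06), *Fam46c* (0.07) and *Etfdh* (0.07). Those of *Dbp* were *Snrpb* (0.03), *Gm6994* and *Shroom3* (both 0.04), and those of *Tef* were *Fblim1* (0.02), *Medag* and *Hmgb3* (both 0.03). *Nfil3* was followed by *Jag1* (0.03), *1190002N15Rik* (0.04) and *Cggbp1* (0.05), and *Bhlhe40* by *D430042O09Rik*, *Rgs19* and *Gipc2* (all 0.03). For *Bhlhe41*, whose probe was not detected on every array, they were *Mfsd2b* (0.08), *Pnpla8* and *Pon2* (both 0.10), and for *Rora* they were *Slc35e3*, *Rere* and *Foxf1* (all 0.04). Clock genes were not the nearest to any of them. The nearest clock gene was at rank 8 for *Hlf*, 103 for *Bhlhe41*, 175 for *Bhlhe40* and 308 for *Rora*. It was at rank 710 for *Dbp*, 773 for *Tef* and 860 for *Nfil3*.

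Markers of some cell types in the tissue differed between the groups and those of others passed no threshold. In bulk RNA, fewer cells of a type and less RNA per cell cannot be told apart. All 8 cardiomyocyte markers were tested, so the labelled tissue held its defining transcripts. Their summed level, in multiples of the array percentile, was 281 to 334 with NEXN-WT and 383 to 402 with NEXN-S437E, and 0 of their 17 probes passed the adjusted p or the 2-fold threshold. The median log2 fold change of these probes was 0.34, with 15 of 17 above 0, and at an unadjusted p under 0.05 there were 5 higher and 0 lower (7.84% and 8.57% of all tested probes). Of 13 fibroblast marker probes, 0 passed the adjusted p and 9 were lower past the 2-fold and unadjusted thresholds (2.57% of all tested probes in either direction), with sums of 92.3 to 160 (the highest in NEXN-WT replicate 1) and 66.8 to 72.8. Of the 9, 2 had likewise entered through NEXN-WT alone, and 7 of the 11 probes detected on all 6 arrays passed. Of 8 T and NK cell marker probes, 4 were lower past the adjusted p (0.148% of all tested probes in either direction), with sums of 0.481 to 0.732 and 0.227 to 0.249. Of these 4, 2 were well above background on no NEXN-S437E array and had entered the test through NEXN-WT, where they are high, so their direction was set by the filter. Among the 4 probes detected on all 6 arrays, 2 fell past the adjusted p. *Cd8a* was not tested, and none of the 3 B cell markers was. No probe of the endothelial (median log2 fold change −0.03), macrophage (−0.03), smooth muscle (−0.23) or erythrocyte (0.26) markers passed either threshold. The summed erythrocyte level was 51.4 on NEXN-S437E replicate 1, against 4.65 and 7.91 on the other NEXN-S437E arrays and 7.08 to 18.2 with NEXN-WT, and that array is the only NEXN-S437E array behind the values within a slide row. *Nfil3* and *Bhlhe40* are expressed by T and NK cells as well as by other cells. The part of these cell types in the values of the 7 genes was not tested.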

How the data were processed

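The 6 samples were 3 NEXN-WT and 3 NEXN-S437E hearts, grouped and numbered by their titles. The authors deposited, per array, Agilent Feature Extraction 10.7.1.1 intensities on a linear scale, background subtracted and not normalized between arrays, and a series table of the same signals with normalized log2 values whose columns have identical quantiles. The signals in that deposited table equalled the array files' spot means (relative tolerance 0.001) for 99.8% of values. No depth applies to arrays, whose number limits the precision. Probe coordinates in the deposited files are on mm9.

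Control spots and outlier spots were left out, spots of a probe were averaged, and log2 of the processed signal minus the array's 75th percentile over probes well above background on all 6 arrays was fitted with limma 3.58.1 in R 4.3.3 (lmFit, eBayes; Benjamini-Hochberg over all tested probes). Probes were tested if detected on every array of NEXN-WT or of NEXN-S437E. The fit was tested on simulated data. Alternatives covered the scaling, background correction, filter, test, slide row, array weights, replicate number and leaving out each array. The members and the gene lists were chosen with earlier results of these data known. All probes of the 7 genes are named, core clock and other output genes where they passed a threshold or were the extremes of the core list, and the 3 nearest genes to each member's brightest tested probe. 1 core clock gene is counted in its list but not reported here by name or drawn. Figures were drawn with matplotlib 3.10.9.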

Additional observations from a re-analysis of the deposited data

How the results depend on the processing

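0 of the 12 member probes passed the adjusted p in any of the 19 alternatives, and the smallest adjusted p of any member ran from 0.108 to 0.468. Of 221 member fold changes recomputed, 215 kept their direction and side of the threshold and 6 changed sign. *Bhlhe41* A_55_P2133001 became 0.14 with normexp background correction. *Bhlhe41* A_55_P2503365 became −0.69 with the slide row as a block and ran from −0.15 to 0.49 when single arrays were left out. *Dbp* A_51_P180492 became −0.0217 with array weights and ran from −0.0172 to 0.34 when single arrays were left out. Without a filter on dim probes, 1 member probe passed the 2-fold and unadjusted thresholds, *Rora* A_55_P2068006, which is not well above background on any array.

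The count of core clock probes past the 2-fold and unadjusted thresholds, 1, was 0 with the percentile over all probes and with normexp, 2 without the filter, and 0 to 1 when single arrays were left out. With array weights 1 core clock probe passed the adjusted p. The median of the core clock genes was 0.16 without the filter and −0.0578 to 0.123 when single arrays were left out. The count of other clock output probes, 1, was 0 with quantile normalization, normexp, the deposited normalized values, the t-test and array weights, and 0 to 1 when single arrays were left out, while their median was 0.0559 with array weights and 0.0384 to 0.441 when single arrays were left out, the lowest without NEXN-WT replicate 1. The cause was not tested.

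Over all probes, 34 passed the adjusted p. With array weights 485 passed, 127 when NEXN-WT replicate 1 was left out, 6 when NEXN-WT replicate 2 was, 15, 13 and 11 when NEXN-S437E replicates 1, 2 and 3 were, and with the slide row block or the methods' t-test 0. With normexp 176 rather than 590 passed the 2-fold and unadjusted thresholds, and the median fold change of all tested probes was 0.12 rather than 0.01 on the log2 scale. The replicate numbers are shared by the groups. The correlations of deviations were −0.15, −0.03 and −0.18 for equal numbers and −0.07 to 0.18 for unequal ones. With deviations centred on 3 arrays per group, these values show no pairing by number but cannot exclude one. With the replicate number as a block, 12 probes passed the adjusted p, the member count past it was 0 and past the 2-fold and unadjusted thresholds 0, and *Hlf* stayed at 0.59 with an adjusted p of 0.253.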
